A study of Saccharomyces cerevisiae with 6 samples.

Results

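The stretch described here is the 5′ part of the 25S coding region in the yeast 35S rRNA gene: all 1132 positions from gene position 3252 to 4383, which are 25S nucleotides 1 to 1132, out of 6858 positions in the deposited table. The positions were chosen by coordinate alone. In the reference genome of Saccharomyces cerevisiae (RefSeq, build R64) they span chromosome XII, 463187 to 464318, on the minus strand, inside RDN25-2, the mature 25S rRNA, and RDN37-2, the whole 35S precursor. The genome assembly holds 2 copies of the gene, and in the other copy, where the stretch spans 454050 to 455181, 0 bases differ. The authors combined the counts of these 2 copies. The paper describes many more tandem repeats of the rDNA in the cell, so a value belongs to no single repeat. The deposited base column had 0 differences to the reference, and 0 of the 30-base sequences ending in the stretch matched elsewhere in the genome.

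RNA polymerase I (Pol I) transcribes the 35S gene, whose transcript is cut into the 18S, 5.8S and 25S rRNAs of the ribosome. The 5′ end of 25S pairs with 5.8S rRNA in the mature large subunit, and it is made after ETS1, 18S, ITS1, 5.8S and ITS2 have already been transcribed. Spt4 forms a heterodimer with Spt5 that binds elongating RNA polymerases. NET-seq isolates the polymerase with its nascent RNA and sequences the RNA 3′ ends, so that each read marks the last nucleotide that had been incorporated. A position with many reads is one where polymerases were often found, and such a position is commonly read as a pause.

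Each of 2 strains was represented by 3 NET-seq libraries, described as biological replicates, from cells grown at 30 °C to an OD600 of 0.3. The spt4△ strain lacks the whole SPT4 gene (spt4△::HIS3) and carries RPA135-(HA)3-(his)7::URA3mx6, an epitope tag on the Pol I subunit used for the immunoprecipitation. The WT strain carries the same tag with another marker (RPA135-(HA)3-(His)7::TRP1mx6) and, in addition, rpa190Δ::HIS3Mx6 covered by the plasmid pRS315-RPA190. Both strains also carry can1-100, together with his3-11,15 and the alleles leu2-3, 112, trp1-1, ura3-1 and ade2-1. The strains therefore differ in the source of the largest Pol I subunit as well as in SPT4, and these differences cannot be told apart. Occupancy is given in rpm, the reads whose 3′ end lies at a position, per 1000000 reads of the library up to the terminator T1 at position 6739.

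The spt4△ libraries held 79198, 71145 and 51217 reads in the stretch, and the WT libraries held 1832778, 989145 and 1591323. The median position had 56, 51 and 37 reads in spt4△, against 1124, 628.5 and 1046 reads in WT. A level of 3 reads corresponds to between 6.22 and 9.76 rpm in spt4△ and to between 0.299 and 0.541 rpm in WT, for counting error only. Because of this gap in depth, some results on the shape of the profile were also computed with each WT library thinned to the reads of an spt4△ library. Within a strain the profiles ranked the positions alike, with Spearman coefficients over the 1132 positions of 0.931 to 0.944 in spt4△ and 0.977 to 0.984 in WT. Between strains the coefficients were 0.793 to 0.849, or 0.781 to 0.836 with WT thinned. Neighbouring positions share a library and its depth, so these coefficients are descriptions.

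The RNA around the strongest local pauses is printed below, 5′ to 3′ as transcribed, because the levels of these nucleotides are compared in the text that follows; not all of them differed between strains. A local pause was defined as a position with at least 4 times the median of the 50 positions on each side, in all 3 libraries of a strain. Capitals mark the pause nucleotides, preceded by 20 and followed by 10 nucleotides. Pauses found in both strains were the following, where the 5 capitals of the stretch at nucleotides 518 to 522 include 3 pauses of both strains at nucleotides 519 to 521, and the capitals at 709 to 711 include 1 of both strains at 709.
25S nucleotide 130: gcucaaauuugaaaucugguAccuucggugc
25S nucleotide 247: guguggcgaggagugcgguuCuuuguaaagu
25S nucleotides 518 to 522: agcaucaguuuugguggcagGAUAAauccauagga
25S nucleotide 687: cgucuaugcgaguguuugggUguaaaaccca
25S nucleotides 709 to 711: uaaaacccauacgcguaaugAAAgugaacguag
The next sequences hold pauses that met the definition in WT and not in spt4△, namely those with the highest WT levels at nucleotides 238, 372, 1022 and 1098, the one with the largest decrease at nucleotide 285, and a group at nucleotides 36 to 40 that lies next to a pause of spt4△.
25S nucleotides 36 to 40: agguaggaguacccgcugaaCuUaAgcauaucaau
25S nucleotides 237 to 238: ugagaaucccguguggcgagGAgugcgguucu
25S nucleotide 285: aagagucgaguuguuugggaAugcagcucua
25S nucleotide 372: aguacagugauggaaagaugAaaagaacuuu
25S nucleotide 1022: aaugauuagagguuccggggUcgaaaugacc
25S nucleotide 1098: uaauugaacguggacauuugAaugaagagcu
The last set holds the 3 pauses that met it in spt4△ and not in WT. They are nucleotide 660 and the last 2 capitals of the stretch at nucleotides 20 to 25, whose first 2 capitals are pauses of WT.
25S nucleotides 20 to 25: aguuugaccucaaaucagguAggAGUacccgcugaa
25S nucleotide 660: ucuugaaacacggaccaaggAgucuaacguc

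The stretch held a smaller share of the Pol I reads in spt4△ than in WT, while its typical position was not lower. The share was 16.4%, 16.2% and 16.7% in the spt4△ libraries, against 18.3%, 17.8% and 18.1% in the WT libraries. The strains did not overlap, and the log2 ratio of the means was -0.14 (exact permutation test, two-sided, p = 0.1, n = 3 each). With 3 libraries against 3, an exact test cannot give a p below 0.1. The median position held 116, 116 and 120 rpm in spt4△, against 112, 113 and 119 rpm in WT, and here the libraries overlapped (log2 ratio 0.036, exact p = 0.3). The share was thus lower in spt4△, while no difference of the median was detected. Relative to the rest of 25S the log2 ratio of reads was -1.34 ± 0.03 in spt4△ and -1.27 ± 0.02 in WT (difference -0.069, exact p = 0.1), and this difference turned to 0.025 by the median over positions and to 0.069 without the highest 2.5% of the positions of every region. Relative to the next 1132 positions alone it was -0.17 ± 0.02 in spt4△ and -0.19 ± 0.01 in WT, with overlap (exact p = 0.3). Relative to the final 1132 it was -0.48 ± 0.05 in spt4△ and -0.34 ± 0.04 in WT (difference -0.14, exact p = 0.1), and this difference also changed sign, to 0.083 by the median over positions and to 0.088 without the highest positions.

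At the upper end, the 90th percentile was 289.6 ± 7.01 rpm in spt4△ and 322.5 ± 6.93 rpm in WT (SD, n = 3 each), without overlap. At the lower end, the 10th percentile was 39.1 ± 1.84 rpm in spt4△ and 36.7 ± 1.51 rpm in WT, with overlap.

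**Figure D1:**
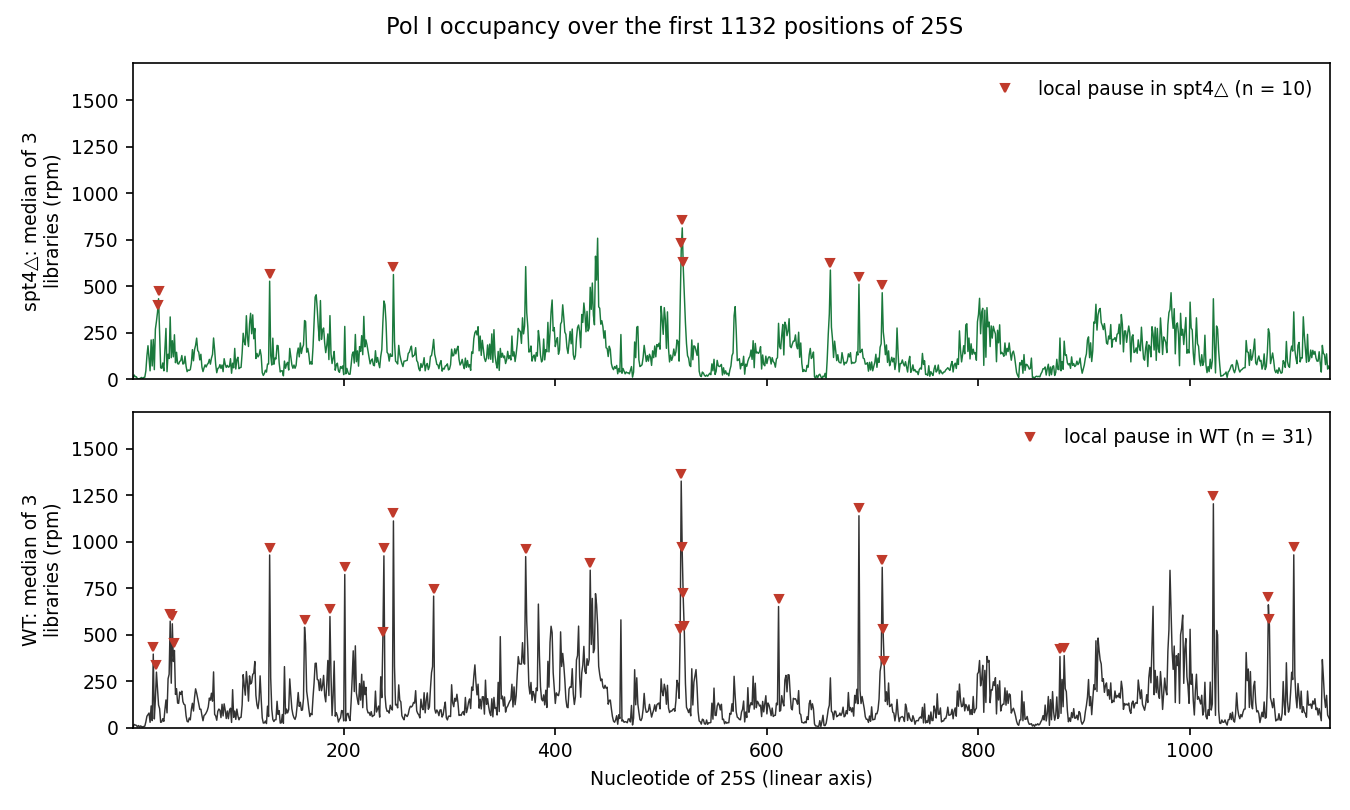
Median occupancy of 3 libraries (rpm, vertical axis) at each of the 1132 nucleotides (horizontal axis) in spt4△ (upper panel) and WT (lower panel), on the same scale, with triangles above the local pauses of each strain. The panels show 10 pauses in spt4△ and 31 in WT, and no spt4△ median exceeds 814 rpm, whereas the highest WT median is 1326 rpm.

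The profile was flatter in spt4△ by the 2 measures that follow. The ratio of the 90th to the 10th percentile was 7.94, 6.89 and 7.42 in the spt4△ libraries, against 9.22, 8.84 and 8.31 in the WT libraries, without overlap (exact p = 0.1). With WT thinned, its mean was 9.35 ± 0.102. The 28 highest positions of a library, 2.5% of the stretch, held 9.49%, 8.54% and 8.83% of its reads there in spt4△, against 13.5%, 12.4% and 12.3% in WT (exact p = 0.1), and thinning left the WT mean at 12.7% ± 0.556. The SD of log2(rpm + 1) over the positions was 1.196 ± 0.034 in spt4△ and 1.243 ± 0.039 in WT, and by this measure the libraries overlapped (exact p = 0.3). This SD was not computed with WT thinned.

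In the following 1132 positions of 25S the 28 highest held 13.2% ± 0.230 in spt4△ and 15.8% ± 1.32 in WT, a smaller difference. The log2 difference between these stretches differed between strains without overlap (by -0.25, exact p = 0.1). In the final 1132 positions the order was turned round, with 25.8% ± 1.87 in spt4△ and 16.7% ± 1.25 in WT, and that contrast with the 5′ stretch was also without overlap (by -1.14, exact p = 0.1). The ratio of percentiles did not follow the same order: its log2 difference between the first and the following stretch was 0.25 larger in spt4△ than in WT (exact p = 0.1), so the flattening by that measure was greater in the middle of 25S. Against the final 1132 positions the log2 difference was 0.21 ± 0.11 in spt4△ and 0.22 ± 0.04 in WT, with overlap (SD, n = 3 each, exact p = 0.9), so no difference in flattening from that stretch was found by this measure. The contrasts between stretches were not computed with WT thinned, so the gap in depth remains in them.

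**Figure D2:**
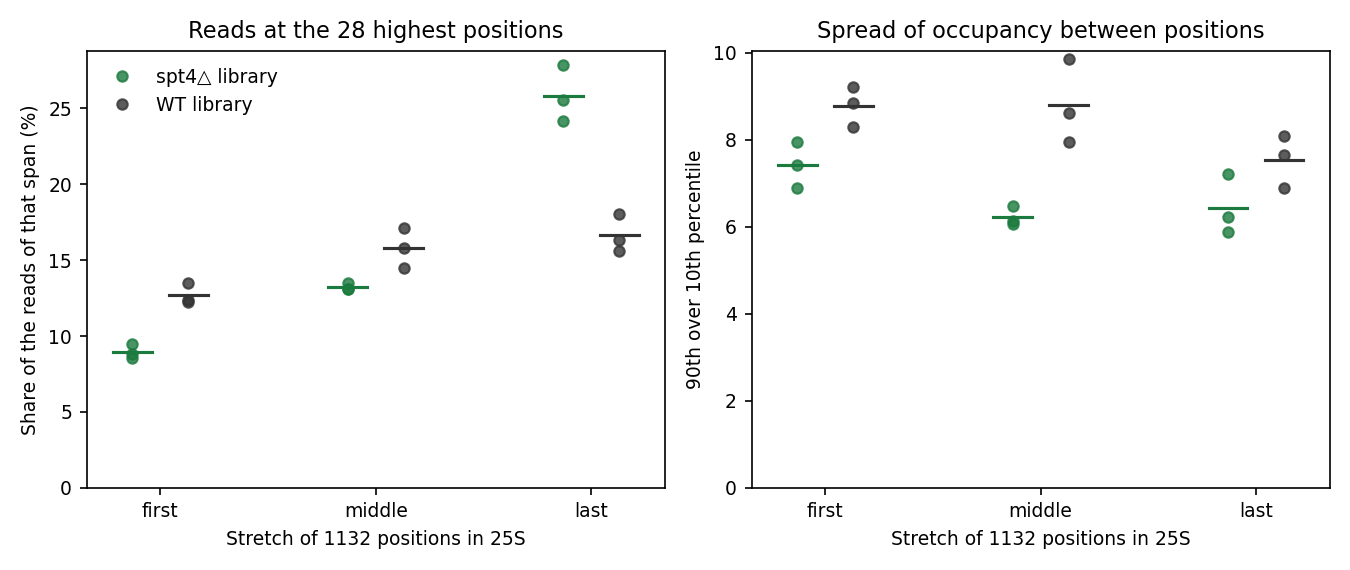
Share of reads at the 28 highest positions (left, percent of the reads of that stretch) and ratio of the 90th to the 10th percentile of occupancy (right) in 3 stretches of 1132 positions each, with one point per library, spt4△ left of WT, and bars at the means. In the first stretch both measures are lower in all 3 spt4△ libraries than in any WT library, and in the last stretch the share at the 28 highest positions is higher in spt4△.

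Each position was compared between strains with limma on log2(rpm + 1), fitted over the 6848 positions of the gene that have a read, all 1132 of the stretch among them, and adjusted over all of them by Benjamini-Hochberg. In the stretch 220 positions were called higher in spt4△ and 273 lower, out of 1132, at an adjusted p under 0.05. These are 19.4% and 24.1% of the stretch, beside 25.2% called higher and 21.0% called lower over the whole gene. The share called lower was near that of the gene and the share called higher was below it. Libraries of the strains did not overlap at 642 positions, or 56.7%, beside 56.6% over the gene. Called positions were higher by a median log2 change of 0.69 or lower by a median of -0.77. Positions called lower had median levels of 127.6 rpm in spt4△ and 210.5 rpm in WT, and positions called higher had 161.8 rpm in spt4△ and 92.9 rpm in WT. Without WT replicate 1 the calls fell to 138 higher and 198 lower. The balance depended on the scale: the share of calls that were higher was 44.6% as deposited, 30.8% with every library scaled to its median position and 59.6% with every library scaled to the total of the stretch. The median log2 change over all positions of the gene was 0.08 as deposited, -0.05 with scaling to the median position and 0.21 with scaling to the total of the stretch.

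Occupancy was examined in windows of 100 nucleotides, the last of which holds 132. Of 11 windows, 1 was called higher in spt4△ and 3 lower, or 9.09% and 27.3%, beside 33.8% called higher and 32.4% lower of the 68 windows of the gene. The window at nucleotides 601 to 700 was the one called higher. It held 130.1, 133.5 and 138.6 rpm per position in spt4△, against 108.8, 117.7 and 119.9 in WT, a log2 change of 0.22 ± 0.05 (SE, limma adjusted p = 0.0089), which was not called with libraries scaled to their median position (0.086, limma adjusted p = 0.163).

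The window at nucleotides 1001 to 1132 was lower. It held 116.6, 114.7 and 115.2 rpm per position in spt4△, against 168.4, 147.7 and 149.4 in WT (log2 change -0.42 ± 0.06, limma adjusted p = 0.00105). Nucleotides 201 to 300 held 132.3, 119.2 and 131.7 rpm per position in spt4△, against 169.3, 158.5 and 166.4 in WT (-0.37 ± 0.05, limma adjusted p = 0.00136). Nucleotides 301 to 400 held 155.7, 175.2 and 172.9 in spt4△, against 217.1, 198.6 and 208.5 in WT (-0.31 ± 0.06, limma adjusted p = 0.0044). No library of one strain reached into the range of the other in these 4 windows. By the median over positions in place of the sum, the windows at 201 to 300 and 1001 to 1132 were no longer called (-0.056 and -0.099).

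The 7 remaining windows had log2 changes of -0.14 to 0.0021, and none passed the test. In those at 101 to 200 and 401 to 500 all spt4△ libraries nevertheless lay below all WT libraries. The calls of the 7 depended on the scale: with libraries scaled to their median position 6 of the 7 were called lower, with log2 changes of -0.268 to -0.157, which made 9 windows lower and 0 higher. With scaling to the total of the stretch the window at 801 to 900 was called higher (0.138, limma adjusted p = 0.021). By the median over positions the window at 901 to 1000 was called higher (0.177), and without spt4△ replicate 3 the window at 1 to 100 was called lower (-0.194, limma adjusted p = 0.036). The window at nucleotides 901 to 1000 held the highest occupancy in both strains, 231.5 ± 9.29 rpm per position in spt4△ and 244.3 ± 7.93 in WT (SD, n = 3 each). The windows at 1 to 100, 701 to 800 and 801 to 900 were low in both strains, with means of 105.7, 106.6 and 117.3 rpm per position in spt4△, beside 116.2, 108.7 and 117.1 in WT. Inside a window the positions moved both ways: in the window at 901 to 1000, 29 positions were called higher and 21 lower, although its sum was not called.

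**Figure D3:**
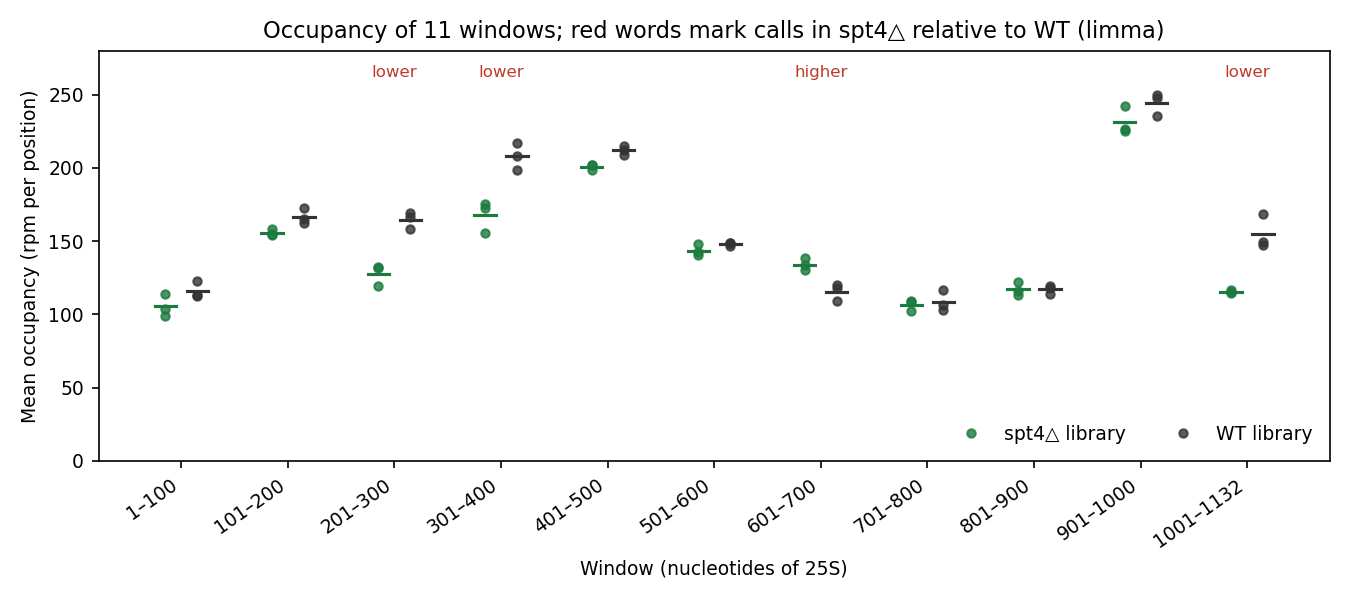
Mean occupancy (rpm per position, vertical axis) of the 11 windows along the stretch (horizontal axis), with one point per library, spt4△ left of WT, and bars at the means. The windows marked higher or lower passed the limma test, and 3 of these 4 are lower in spt4△.

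Local pauses were fewer in spt4△: 10 positions met the definition in spt4△ and 31 in WT, of which 7 were shared. The 7 are 70.0% of the spt4△ pauses and 22.6% of the WT pauses. Thinning the WT libraries gave the same numbers. At 26 of the 31 WT pauses every spt4△ library lay below every WT library, beside 25.9% of the positions of the gene. The pauses were chosen on their WT level, so nothing is read from this count. With limits of 3 and 6 times in place of 4, the numbers were 30 and 1 in spt4△ and 63 and 13 in WT.

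The pause at nucleotides 518 to 522 stood highest in both strains by the median of the 3 libraries. By the mean, nucleotide 1022 was higher in WT than nucleotide 519 (1297 against 1272 rpm). Nucleotide 519 (position 3770), an A, had the highest WT median. It held 682.4, 690.5 and 732.3 rpm in spt4△, against 1337, 1153 and 1326 rpm in WT. All spt4△ libraries lay below all WT libraries there (log2 change -0.85 ± 0.12, limma adjusted p = 0.00024). Nucleotide 520, a U, had the highest spt4△ median, with 956.2, 676.8 and 813.7 rpm, against 1059, 918.8 and 934.1 rpm in WT. The libraries overlapped at this nucleotide, and it was not called (-0.26 ± 0.15, limma adjusted p = 0.165). Without spt4△ replicate 1, nucleotide 520 was called lower (-0.38, limma adjusted p = 0.048). With all libraries in the fit, the neighbours at 518, 521 and 522 were not called, with log2 changes of -0.27, -0.21 and -0.14. The summit therefore lay on the A in every WT library, and on the U in 2 of the 3 spt4△ libraries.

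The other pauses of both strains were lower in spt4△. Nucleotide 687 (position 3938), a U after a run of G, had 589.0, 478.6 and 511.0 rpm in spt4△, against 1357, 1140 and 1088 rpm in WT (-1.18 ± 0.13, limma adjusted p = 4.8e-05). Nucleotide 247, a C, had 620.2, 407.9 and 563.1 rpm in spt4△, against 1459, 1091 and 1112 rpm in WT (-1.21 ± 0.17, limma adjusted p = 0.00024). Neither set of libraries reached into the other at these nucleotides. Nucleotides 130 and 709, both A, averaged 509.3 ± 32.5 and 459.7 ± 31.04 rpm in spt4△, and 934.9 ± 57.8 and 843.2 ± 38.1 rpm in WT (SD, n = 3 each), with a log2 change of -0.88 at both.

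Among the pauses of WT that did not meet the definition in spt4△, the highest was nucleotide 1022 (position 4273), a U after a run of G. It had 535.1, 414.8 and 432.9 rpm in spt4△, against 1548, 1204 and 1140 rpm in WT (-1.49 ± 0.15, limma adjusted p = 2.4e-05). The strains did not overlap there. The position still stood 3.31 to 4.65 times above its surroundings in the spt4△ libraries, against 9.15 to 11.02 times in WT, so it was missed by the definition in spt4△ and was not flat. Nucleotides 238 and 372, both A, averaged 425.7 ± 109.1 and 587.3 ± 53.3 rpm in spt4△, and 917.5 ± 72.0 and 929.6 ± 102.1 rpm in WT (SD, n = 3 each). Nucleotide 1098, an A, had 304.9, 362.3 and 429.6 rpm in spt4△, against 1127, 841.2 and 929.7 rpm in WT (-1.40 ± 0.15, limma adjusted p = 3.6e-05).

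Nucleotide 440 (position 3691), an A, was the runner-up of spt4△ by the median. It was higher there, with 819.3, 699.6 and 758.3 rpm, against 547.5, 610.7 and 553.1 rpm in WT (0.41 ± 0.12, limma adjusted p = 0.0129). It stood 3.63 to 4.82 times above its surroundings in spt4△ and 2.80 to 3.34 times in WT, and so met the definition of a local pause in neither strain. This call was lost with libraries scaled to their median position (0.28), with TMM factors in edgeR (0.32) and without WT replicate 1 (0.38).

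The pauses of spt4△ that did not meet the definition in WT were nucleotides 24, 25 and 660. At nucleotide 24 the WT libraries stood 3.33 to 4.23 times above the surroundings, against 5.02 to 6.31 times in spt4△, so WT missed the definition narrowly. Nucleotide 660 (position 3911), an A, had 587.0, 624.4 and 585.8 rpm in spt4△, against 199.6, 305.0 and 268.6 rpm in WT (1.24 ± 0.15, limma adjusted p = 6.8e-05). It lies inside a run of 11 adjacent positions, nucleotides 658 to 668, all called higher, which together held 2487 ± 162.8 rpm in spt4△ and 1083 ± 216.4 rpm in WT. Nucleotide 25 (position 3276), a U, had 460.5, 433.0 and 429.6 rpm in spt4△, against 85.7, 122.6 and 148.1 rpm in WT (1.92 ± 0.17, limma adjusted p = 1.0e-05). All spt4△ libraries were higher than all WT libraries at nucleotides 24, 25 and 660.

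Near the 5′ end of 25S, in the sequences shown for nucleotides 20 to 40, neighbouring positions moved in opposite directions. Nucleotide 20, an A, was a pause of WT, with 170.1, 214.2 and 214.8 rpm in spt4△, against 381.9, 396.4 and 516.8 rpm in WT. The 6 nucleotides from 24 to 29 were all called higher and together held 1267 ± 116.9 rpm in spt4△ and 538.9 ± 101.6 rpm in WT. The 11 nucleotides from 33 to 43 were all called lower and together held 1612 ± 125.6 rpm in spt4△ and 3259 ± 427.6 rpm in WT (SD, n = 3 each). The very first nucleotide of 25S had 10.4, 6.84 and 0 rpm in spt4△, against 4.19, 4.51 and 6.69 rpm in WT, values at or near the level of 3 reads in spt4△, and no difference was detectable at this depth. The last nucleotide of the stretch, 1132, averaged 59.4 ± 13.5 rpm in spt4△ and 47.0 ± 8.26 rpm in WT, with overlap.

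**Figure D4:**
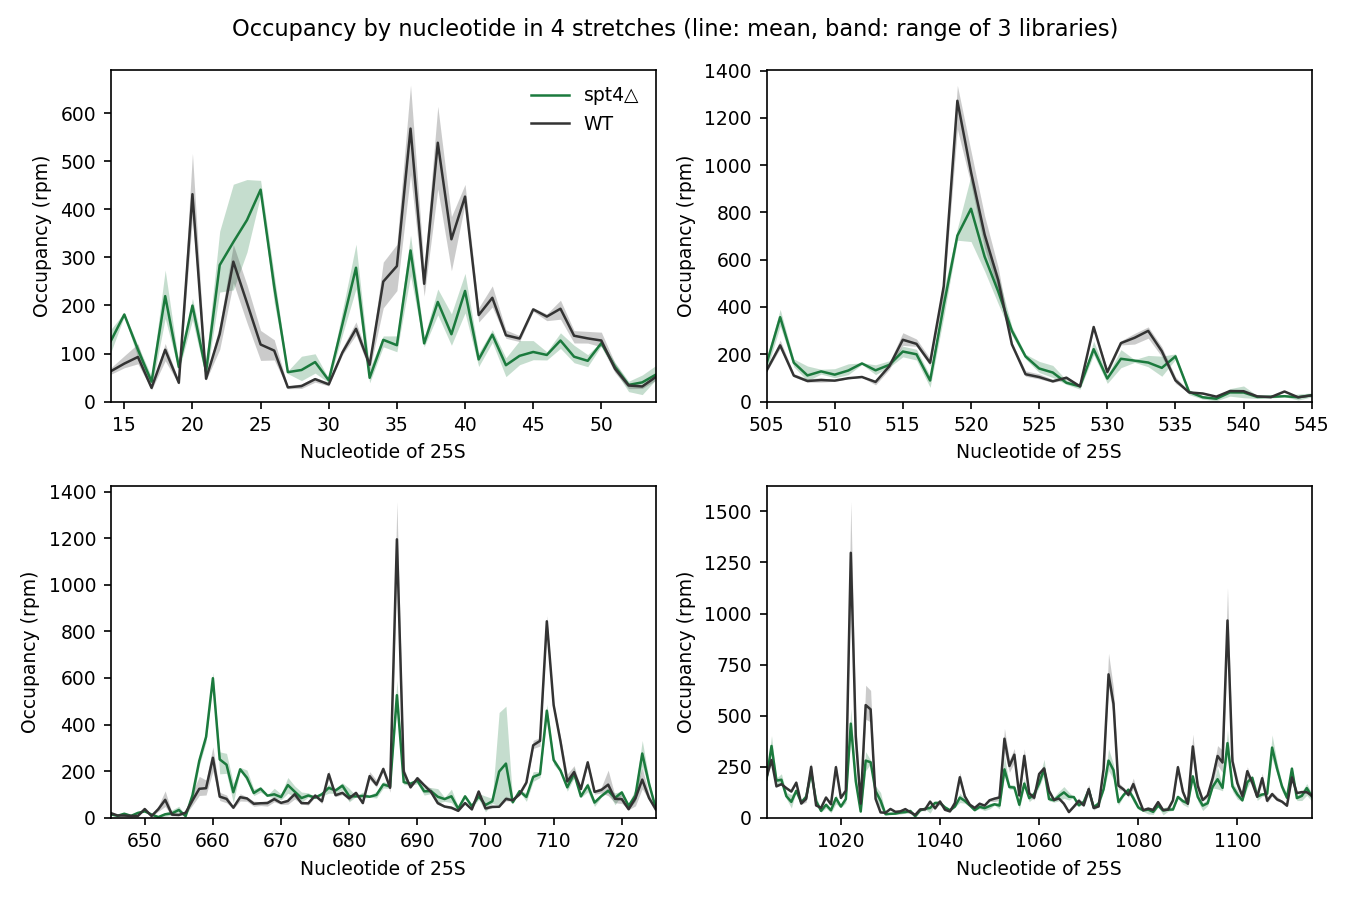
Occupancy (rpm, vertical axis) by 25S nucleotide (horizontal axis) in 4 stretches, as the mean (line) and range (band) of 3 libraries in spt4△ and WT. Nucleotides 24 to 29 and 658 to 668 are higher in spt4△, nucleotides 33 to 43 are lower, and the WT summits at nucleotides 519, 687, 709, 1022 and 1098 are all lower in spt4△.

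Runs of 5 to 11 adjacent positions called in the same direction numbered 25 in the stretch, of which 11 were higher, with 78 positions, and 14 were lower, with 104 positions. These are 6.89% and 9.19% of its positions, beside 9.43% in higher runs and 8.54% in lower runs over the gene, and the difference was not tested. At nucleotides 1096 to 1100, around the pause at 1098, the sum was 969.4 ± 113.4 rpm in spt4△ and 1985 ± 286.3 rpm in WT, and at nucleotides 1106 to 1110, a few positions downstream, it was 954.4 ± 131.8 rpm in spt4△ and 428.3 ± 43.6 rpm in WT. A lower run and a higher run thus lie near each other there. They also do at nucleotides 24 to 43, but in the other order, with the higher run upstream. How many of the runs have such a neighbour was not counted. Because runs were picked from the calls, no test is given for them.

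The largest increases among positions above the median level were at nucleotides 133, 25, 571, 240 and 1107. Nucleotide 133 (position 3384), a U that lies 3 nucleotides after the shared pause at 130, had 172.2, 221.1 and 234.3 rpm in spt4△, against 41.6, 49.2 and 45.3 rpm in WT (2.17 ± 0.17, limma adjusted p = 4.3e-06). Nucleotide 240, a U that lies 2 nucleotides after the WT pause at 238, had 458.4, 248.4 and 305.9 rpm in spt4△, against 110.4, 100.5 and 121.8 rpm in WT. At both sites the pause nucleotide was lower in spt4△ and a nearby downstream nucleotide was higher. Both sites were seen through the list of largest increases, and how many other pauses have such a neighbour was not counted. Nucleotides 571 and 1107 had log2 changes of 1.78 and 1.55.

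The largest decreases were at nucleotides 285, 144, 761, 348 and 334, with log2 changes of -1.70, -1.68, -1.66, -1.58 and -1.58, and all 5 end in A. Nucleotide 285 (position 3536), a WT pause, had 186.7, 214.2 and 276.6 rpm in spt4△, against 685.7, 707.9 and 788.0 rpm in WT (limma adjusted p = 7.6e-06). Nucleotide 348 had 147.3, 196.0 and 166.0 rpm in spt4△, against 560.5, 490.2 and 471.8 rpm in WT. The positions of both sets were taken from those whose libraries do not overlap. Of the 5 largest increases, 4 end in U and 1 in C.

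**Figure D5:**
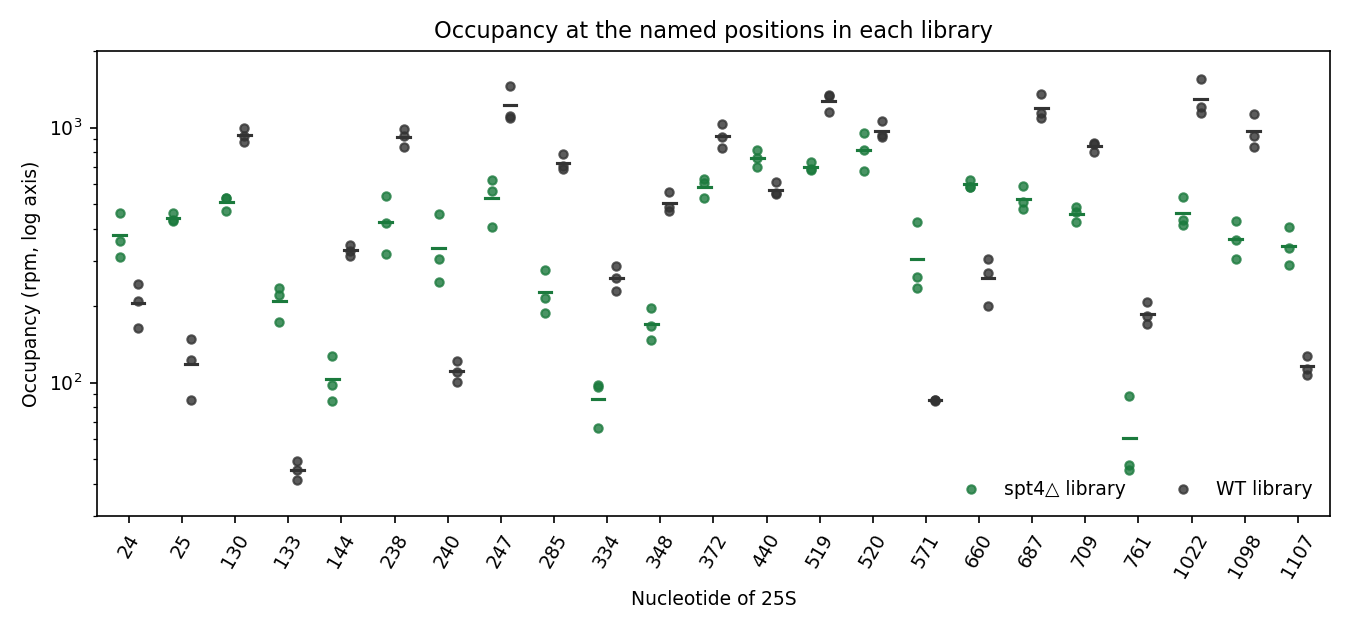
Occupancy (rpm, log axis) at 23 named nucleotides of 25S (horizontal axis), with one point per library, spt4△ left of WT, and bars at the means. Libraries of the strains overlap at nucleotide 520, and at the remaining nucleotides, of which the largest changes were chosen among positions without overlap, all 3 spt4△ libraries lie on one side of WT.

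Calls were also counted by the last incorporated nucleotide. Of 313 positions ending in A, 113 were called lower in spt4△ and 35 higher, and of 290 positions ending in U, 61 were lower and 83 higher. For G the numbers were 64 lower and 56 higher of 329, and for C they were 35 lower and 46 higher of 200. In shares, 11.2% of the A, 28.6% of the U, 17.0% of the G and 23.0% of the C positions were called higher, beside 19.4% of all positions of the stretch. The shares called lower were 36.1% for A, 21.0% for U, 19.5% for G and 17.5% for C, beside 24.1% of all. Levels were compared per library as the mean log2(rpm + 1) of the positions with a given last base minus that of all 1132. For A this was 0.25, 0.33 and 0.37 in the spt4△ libraries, against 0.54, 0.54 and 0.52 in the WT libraries, so A stood above the average in both strains and by less in spt4△. For U it was 0.06 ± 0.03 in spt4△ and -0.08 ± 0.03 in WT, and for C it was -0.19 ± 0.07 in spt4△ and -0.29 ± 0.01 in WT (SD, n = 3 each). The libraries did not overlap for A, U and C (exact permutation test, p = 0.1 each, 0.133 adjusted over the 4 bases), and they overlapped for G (exact p = 0.4). Among the 31 WT pauses 19 ended in A, a base that 27.7% of the positions have. Of the 7 pauses shared by both strains 4 ended in A, and of the 3 found in spt4△ only 1 did.

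The same measure was computed for each base at each offset from 15 nucleotides upstream to 15 downstream of the last nucleotide, which gives 31 offsets for each of 4 bases. Of these values, 53 differed between strains by limma adjusted over all of them, or 42.7%, with 27 higher and 26 lower in spt4△. The values share positions and are not independent. The test weighs only the spread between libraries over fixed sets of positions. It therefore cannot show that a base goes with a change across positions. The longest series of calls concerned the nucleotides not yet transcribed. With C 3 nucleotides downstream, positions averaged -0.13 in spt4△ and -0.30 in WT (difference 0.17, limma adjusted p = 6.9e-06), and with A there they averaged 0.13 in spt4△ and 0.24 in WT (-0.11, limma adjusted p = 1.7e-05). C was called higher at every offset from 1 upstream to 6 downstream, and A was called lower at every offset from 0 to 7 downstream. By the strain means, A nevertheless stood above and C below the average in both strains at offsets 1 to 4 downstream.

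Upstream, within the last few nucleotides of the RNA, the bases concerned were others. Positions with A 2 nucleotides upstream averaged 0.17 in spt4△ and 0.02 in WT (difference 0.15), and positions with U there averaged -0.20 in spt4△ and -0.06 in WT (-0.14). A was called higher and U lower at every offset from 5 to 2 upstream. A G immediately before the last nucleotide went with high occupancy in both strains, 0.30 in spt4△ and 0.36 in WT (-0.06). With the WT libraries thinned, 44 of the 53 calls remained, all in the same direction.

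To compare these preferences with those elsewhere, the same values were computed over the remaining positions of 25S and the difference between the stretches was tested. The test weighs the spread between libraries over fixed sets of positions. Spread between positions does not enter, so it cannot show that a preference is particular to the 5′ stretch. The difference was called for 54 values, or 43.5%. The remaining positions had 35 values called higher and 29 lower, of which 34 were also called in the 5′ stretch, 32 of them in the same direction. The gain at a downstream C was larger in the 5′ stretch at offsets 2 to 6. At offset 6 the difference between strains was 0.14 in the 5′ stretch and 0.03 in the remaining positions (by 0.11 more, limma adjusted p = 5.0e-06). The loss at a downstream A was not larger throughout: the 5′ stretch minus the remaining positions gave 0.06 at offset 2, a smaller loss, and -0.05 at offset 5, a larger one. At 7 nucleotides upstream A was lower in the 5′ stretch (-0.05) and higher in the remaining positions (0.05).

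The linker ligated to the RNA 3′ ends begins with the letters CANNNNNNNNCT. In the gene itself these letters followed 13 positions of the gene, and 1 position of the stretch. It was no pause in either strain. The position held a median of 214.8 rpm in spt4△ and 147.7 rpm in WT and was called higher.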

How the data were processed

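Pol I occupancy in 3 spt4△ and 3 WT cultures was measured by NET-seq. The authors removed duplicate reads by their molecular identifiers, trimmed the linkers, aligned the reads and counted their 3′ ends at each position of both gene copies in the assembly. The submitters' processing notes name bcl2fastq 2.20.00, cutadapt 1.12, STAR 2.7.1a, SAMtools 1.6, bedtools 2.26.0, R 3.6.2 and genome build R64. The deposited values are in rpm (RPM), which the authors obtained by dividing counts by the total up to position 6739. Columns with the authors' own means, medians, intervals, ratio, change and p-value were not used. The table held 0 unmapped value columns.

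Values are whole multiples of one read per library (11 of 41148 values were not, at a tolerance of 0.1 reads), and these reads gave the depth. limma 3.58.1 in R 4.3.3 (lmFit, eBayes) was run with strain as the only term and no filter. Over 6848 positions it used log2(rpm + 1), with trend in eBayes. Over 68 windows it used log2 of the summed rpm + 1, without trend. Over 31 offsets of 4 bases it used the mean log2 differences described above, also without trend. Tested on simulated positions, limma recovered 100 of 100 positions changed by 2 on the log2 scale and 86 of 100 changed by 1, with 4 false calls among 6648. The changes were planted only at positions above the median level, with one setting for the spread of all positions. Far fewer positions were changed than were called in the data, so these numbers do not give the performance on the data. One value per library was compared by two-sided exact permutation tests. Alternatives used edgeR 4.0.16 and DESeq2 1.42.0 on recovered reads, other pseudocounts, filters, scalings and window sizes, thinned WT libraries and libraries left out.

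The stretch, its definitions and lists were chosen with earlier results of these data known. Positions named are the 3 highest of each strain by median, the 5 largest called changes in each direction without overlap and above the median level, the first and last position, up to 6 pauses of both strains and up to 4 of one strain only. Further positions (518, 521, 522, 20 and the runs of calls) were named after their values were seen, as were the percentile ratio, the thinned base values and the contrast with the remaining 25S. That libraries of one strain are separate cultures rests on the study's description, and no run or batch of the libraries is given in the sources used here. Python 3.11.15, numpy 2.4.6, pandas 2.3.3, scipy 1.17.1 and matplotlib 3.10.9 were used.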

Additional observations from a re-analysis of the deposited data

How the results depend on the processing

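The counts of called positions stayed within 1.5 times under every pseudocount, filter, scaling and tool tried. They were 241 higher and 280 lower by edgeR and 180 higher and 309 lower by DESeq2. Leaving out one library gave 138 to 233 higher, the lowest without WT replicate 1. Named positions kept direction and call in 366 of 374 repeats. Some of them were picked for large called changes without overlap in these same data, which favours such agreement. Nucleotide 1 changed sign with edgeR (0.32), edgeR with TMM (0.24) and DESeq2 (0.22), and ranged from -1.11 to 0.64 with one library left out.

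Windows depended more on the choice. With 50 positions per window 5 were higher and 8 lower, with 200 positions 0 were higher, by the median over positions 2 were higher and 1 lower, with scaling to the median position 0 were higher and 9 lower, and with scaling to the total of the stretch 2 were higher. Windows that were not called changed sign as follows. By the median over positions, 101 to 200 gave 0.031, 401 to 500 gave 0.072, 501 to 600 gave 0.055, 701 to 800 gave 0.020 and 901 to 1000 gave 0.177, which was then called. With scaling to the median position, 801 to 900 gave -0.128. With scaling to the total of the stretch, 101 to 200 gave 0.040, 401 to 500 gave 0.059, 501 to 600 gave 0.090, 701 to 800 gave 0.109 and 901 to 1000 gave 0.059. Without the highest 2.5% of positions of every region, 501 to 600 gave 0.050 and 701 to 800 gave 0.026. With one library left out, 701 to 800 ranged from -0.065 to 0.024 and 801 to 900 from -0.029 to 0.025. The cause was not tested.

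By the median over positions, the log2 difference was 0.036 for the share of reads, 0.025 for the ratio to the rest of 25S, -0.053 to the next 1132 positions and 0.083 to the final 1132. Without these highest positions the ratios to the rest and to the final 1132 were 0.069 and 0.088. Pauses at 3 times the local median numbered 30 in spt4△, 63 in WT and 18 in both, and at 6 times 1, 13 and 1. By reads in place of log2 levels, 42 base values were higher.

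The replicate numbers did not pair the libraries: deviations from the strain means correlated by 0.011, 0.021 and -0.053 between libraries of the same number. With the replicate block, 227 positions were higher and 280 lower, and the calls of windows were the same in number (1 and 3). Depth in spt4△ limits single positions: 3 reads are up to 9.76 rpm there.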
